A study of Homo sapiens with 12 samples.

Results

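Interferon-stimulated effector genes are the genes that carry out the antiviral programme switched on by interferons. A list of 41 such genes was chosen by name, from their known induction by interferon and with earlier results of these data known. Of these, 40 were measured among 18404 genes. A gene counts as measured where a probe set of the array is annotated to it alone. GBP1 is the member left out, since its probe set is annotated to several genes. A gene with several probe sets was read from the one of greatest mean level on the 12 arrays. All levels below are log2 values, so a difference of 1 is a doubling.

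All samples were NB4 cells, an established line of human acute promyelocytic leukemia. All-trans retinoic acid (ATRA) drives these cells toward the granulocyte. Each kind of cell was measured untreated and after 96 hours in 0.5 uM ATRA. The control cells comprised the wild type and 2 samples with a scrambled shRNA. Knockdown cells were 2 samples with shRNA1 and 1 sample with shRNA2, both shRNAs being directed against HOTAIRM1, a long noncoding RNA of the HOXA locus. The shRNA cells carried a lentiviral pLKO.3G vector, were sorted for its GFP marker and were grown from single cells in soft agar, so they are of clonal origin. The 2 scrambled and the 2 shRNA1 samples are biological duplicates. The labels do not state whether they are separate clones, so the 2 samples of a construct may come from 1 clone. Each construct and replicate number is called a line below, which gives 6 lines and 3 arrays in each of 4 groups, and p-values measure only the spread between these samples. HOTAIRM1 was not measured by a named probe set, so the knockdown itself was not checked here.

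Type I interferons bind a receptor that signals through the kinases JAK1 and TYK2. The signal ends in a complex with IRF9 that binds the interferon-stimulated response element (ISRE) in the promoters of its targets. Interferon gamma acts mainly on a different element, the gamma-activated site (GAS). In acute promyelocytic leukemia cells, induction of interferon-response genes by ATRA is long known.

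The array-wide state of the cells bears on 2 lines. On the first principal component, which held 66.7% of the variance, untreated scrambled replicate 2 scored -10.6, apart from the other untreated arrays at -41.2 to -32.5. TGM2, a transglutaminase strongly induced by ATRA, stood at 12.86 in that untreated array and at 7.93 to 8.30 in the other untreated arrays. The ATRA arrays scored between 20.8, in shRNA1 replicate 1, and 43.5, in the wild type. Of 7 promyelocyte markers 6 were measured, and their mean level ran from 10.14 to 11.47 over the arrays. Their median ATRA change ran from -1.31 in the wild type to 0.07 in scrambled replicate 1, and was -0.54 in shRNA1 replicate 1. The granule protease CTSG stood at 8.03 to 11.45 in untreated and 7.56 to 8.40 in treated arrays, and the granule peroxidase MPO at 12.67 to 13.81 over all arrays. The mean level of T and NK cell, erythroid and plasmacytoid dendritic cell marker lists moved by less than 0.5 between arrays, from 7.15 to 7.58, from 7.03 to 7.35 and from 6.73 to 7.08. That of B cell markers ran from 7.26 to 8.17. A list mean can hide opposite moves of single genes. Within the T and NK cell list the fitted ATRA changes ran from -0.51 to 0.91 in control cells. In knockdown cells they ran from -0.98 to 1.33. NKG7 of that list stood at 11.02 to 11.76 in untreated and 12.33 to 12.76 in treated arrays. Levels of different genes are not comparable on an array, so the ranges of level show change between arrays and not presence.

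Promoter sequences from RefSeq (GRCh38.p14) were at hand for 33 of the 40 measured members. They are shown because the members move together while 1 line responded less. The first 3 are the genes whose response in shRNA1 replicate 1 lay farthest below the lowest of the other lines, among members with an entry and an ISRE core. The last 3 are genes whose change in that line was not the smallest. Each is the 180 bases before a transcription start, 5′ to 3′ on the gene's strand, with matches to the ISRE core in capitals.
IFIT1 (chr10:89392443-89392622, plus strand): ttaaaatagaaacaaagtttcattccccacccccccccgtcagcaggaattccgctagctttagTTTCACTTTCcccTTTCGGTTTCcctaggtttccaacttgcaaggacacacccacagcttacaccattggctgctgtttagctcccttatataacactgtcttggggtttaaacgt
IFI44L (chr1:78620268-78620447, plus strand): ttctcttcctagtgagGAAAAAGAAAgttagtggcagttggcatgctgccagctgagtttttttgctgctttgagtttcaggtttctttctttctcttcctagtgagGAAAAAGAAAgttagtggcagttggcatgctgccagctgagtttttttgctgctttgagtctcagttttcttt
IFIT3 (chr10:89327817-89327996, plus strand): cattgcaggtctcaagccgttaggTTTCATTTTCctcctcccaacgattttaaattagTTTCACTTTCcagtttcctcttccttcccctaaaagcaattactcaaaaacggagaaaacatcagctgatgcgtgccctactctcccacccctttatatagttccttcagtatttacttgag
DDX60L (chr4:168480493-168480672, minus strand): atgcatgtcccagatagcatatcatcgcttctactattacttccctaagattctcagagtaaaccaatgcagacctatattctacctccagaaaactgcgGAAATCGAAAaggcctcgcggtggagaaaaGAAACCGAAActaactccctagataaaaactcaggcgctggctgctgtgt
PARP14 (chr3:122680659-122680838, plus strand): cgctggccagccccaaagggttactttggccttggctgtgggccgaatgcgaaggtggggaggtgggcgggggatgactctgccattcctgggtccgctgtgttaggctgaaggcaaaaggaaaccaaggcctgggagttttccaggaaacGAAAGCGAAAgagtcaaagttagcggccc
LGALS3BP (chr17:78979924-78980103, minus strand): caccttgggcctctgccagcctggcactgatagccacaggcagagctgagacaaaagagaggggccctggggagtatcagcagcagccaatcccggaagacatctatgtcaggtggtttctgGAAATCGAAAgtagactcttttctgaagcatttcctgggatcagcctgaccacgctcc

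The ISRE core was searched as GAAANNGAAA and the GAS core as TTCNNNGAA, on both strands of the 250 bases before each start. A match of either may overlap the other. At least 1 start of 22 of the 33 members (66.7%) had an ISRE core, against 502 of 14230 measured genes with an entry (3.53%). A GAS core was found for 9 members (27.3%), against 8.04% of the measured genes. A match is a string of letters and not a shown binding site. IFIT1 has its pair of cores 103 and 116 bases before the start, and PARP14 has 1 core 29 bases before it. IFIT2, OAS2, OASL, MX2, DHX58, TRIM22 and GBP2 had no entry. Changes of members with and without the core are set side by side with no test. The 22 members with the core had a median change of 0.80 in shRNA1 replicate 1 and 2.69 over the medians of the other lines. The 11 members without it stood at 0.93 and 2.18. Taken gene by gene, the median gap between the 2 values was alike, at -1.50 with the core and -1.51 without it.

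ATRA raised most of the programme in both kinds of cells. In control cells 37 of 40 members rose, with a median change of 2.04 and a range of 0.27 to 3.84 over all 40. Over all genes the median change was 0.05, and 15.2% of genes rose and 20.9% fell. In knockdown cells 33 of 40 members rose, with a median of 2.10 and a range of 0.10 to 3.75. There the median of all genes was -0.03, and 10.1% of genes rose and 14.7% fell. Calls are at an adjusted p of 0.05 from limma, adjusted by Benjamini-Hochberg over all 18404 genes. The median hides a wide spread between lines, which the following paragraphs describe.

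Groups of arrays were clearly apart for most members. Every ATRA array of control cells lay above every untreated one for 39 members, against 25.2% of all genes. In knockdown cells this held for 32 members, against 16.7% of all genes. The change was above 0 in all 6 lines for 36 members, a count that was not made over all genes. MX2, IFI27 and IFI44 did not pass the test in control cells. MX1, MX2, ISG20, OAS2, EPSTI1, IFI27 and IFI44 did not pass it in knockdown cells. The knockdown count was 21 without the ATRA array of shRNA2, 22 without that of shRNA1 replicate 2 and 36 without that of shRNA1 replicate 1.

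**Figure D1:**
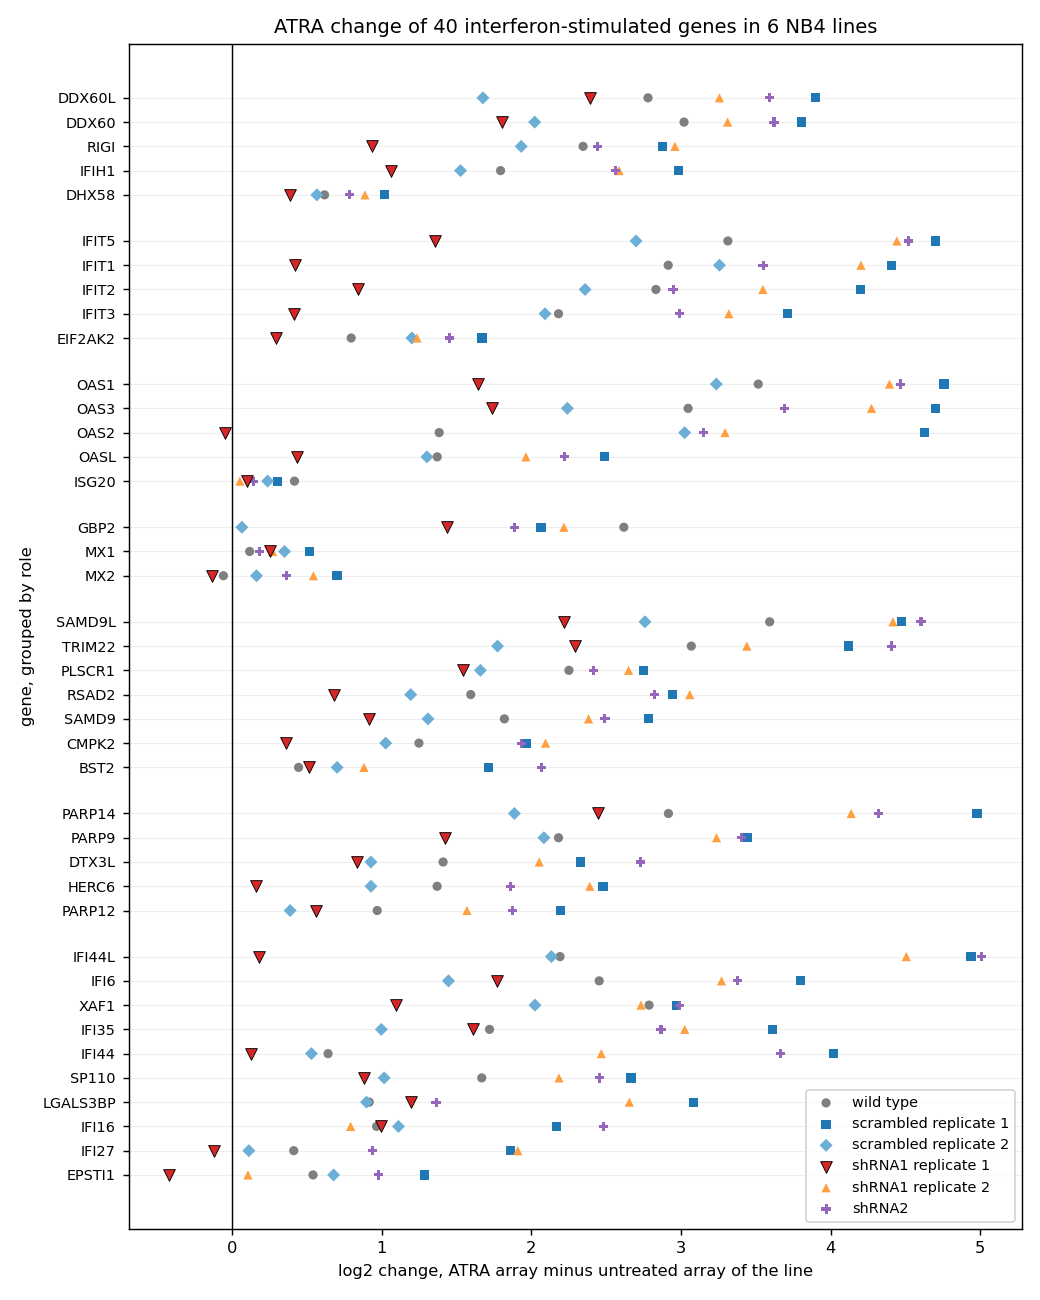
Change on the log2 scale (ATRA array minus untreated array) of each of the 40 measured members, grouped by role, with 1 symbol for each of 6 lines. The red triangles of shRNA1 replicate 1 are the leftmost symbol for 28 members, and the dark blue squares of scrambled replicate 1 are the rightmost for 27.

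No member's ATRA response was shown to differ between knockdown and control cells. For the difference in response, 0 of 40 members and 0% of all genes passed, with 0 members and 2815 genes at an unadjusted p under 0.05. Its median over members was -0.02 and its range -0.88 to 0.39, and the smallest adjusted p was 0.406. That median was 0.52 without both arrays of shRNA1 replicate 1, with 37 of 40 members above 0 in place of 19. In untreated cells, knockdown against control gave 0 members and 0% of genes, with 0 members and 727 genes at an unadjusted p under 0.05. After ATRA it again gave 0 members, while 0.0598% of genes passed. Here 2 of 40 members, ISG20 and EPSTI1, had an unadjusted p under 0.05, against 5171 genes (28.1% of all genes). The smallest adjusted p of a member was 0.115. The median difference after ATRA was -0.25 with 5 members above 0. Without both arrays of shRNA1 replicate 1 it was 0.18 with 33 members above 0, so leaving out this line changed the sign of that median too. The knockdown group then holds only shRNA1 replicate 2 and shRNA2. Members move together, so counts above 0 are not independent observations, and they were not made over all genes. With all arrays, the median over all genes was -0.01 for the difference in response and -0.03 for the difference after ATRA. Other arrays also moved the medians. With 1 control array left out, the median ATRA change in control cells ran from 1.75 to 2.35, beside 2.10 in knockdown cells. Still 0 members passed in any of these 3 comparisons without shRNA1 replicate 1.

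The lines differed among themselves within each arm. The median change over the 40 members was 2.95 in scrambled replicate 1, 2.65 in shRNA1 replicate 2 and 2.64 in shRNA2. It was 1.76 in the wild type, 1.31 in scrambled replicate 2 and 0.86 in shRNA1 replicate 1. A change of at least 1 was seen for 37, 33, 34, 28, 26 and 16 members in the same order. The line medians had an SD of 0.85 in control cells and 1.03 in knockdown cells (n = 3 each). Neighbours in this order differ by less than the larger of these SDs, so the order is a description. The comparison of shRNA1 replicate 1 with the other lines that follows is also given without a test, since it is 1 line, singled out with earlier results known.

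In shRNA1 replicate 1 the change was the smallest of the 6 lines for 28 of 40 members, against 10.1% of all genes. The smallest change fell in scrambled replicate 2 for 8 members (20.1% of all genes), in the wild type for 2 (20.6%) and in shRNA1 replicate 2 for 2 (13.7%). It fell in scrambled replicate 1 (11.6%) and in shRNA2 (23.8%) for 0 members. With scrambled replicate 2 left out, 35 members had their smallest change in shRNA1 replicate 1. The low response of shRNA1 replicate 1 lay in the treated array: its ATRA level was the lowest of the 6 ATRA arrays for 37 members, against 13.8% of all genes, and by at least 1 for 16. Its untreated level lay within the range of the other 5 untreated arrays for 32 members, a range often widened by scrambled replicate 2. The counts by margin and by range were not made over all genes. The median untreated level of members was 7.43 in shRNA1 replicate 1 and 7.32 to 8.57 in the other lines. The low treated level of shRNA1 replicate 1 does not depend on how untreated and treated arrays are matched.

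Scrambled replicate 2 differed from the others before treatment. Its untreated array had the highest of the 6 untreated levels for 28 members, against 22.5% of all genes. It was highest by at least 1, a margin not counted over all genes, for 8: IFI6, OAS3, SP110, DDX60L, SAMD9, TRIM22, PARP14 and GBP2. Scrambled replicate 1 had the highest ATRA level for 37 members, against 11.5% of all genes. The mean level of the 40 members was 7.49 to 7.68 in the untreated arrays other than scrambled replicate 2, where it was 8.25. After ATRA it was 8.48 in shRNA1 replicate 1 and 9.49, 9.69, 10.11, 10.13 and 10.51 in the wild type, scrambled replicate 2, shRNA1 replicate 2, shRNA2 and scrambled replicate 1.

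**Figure D2:**
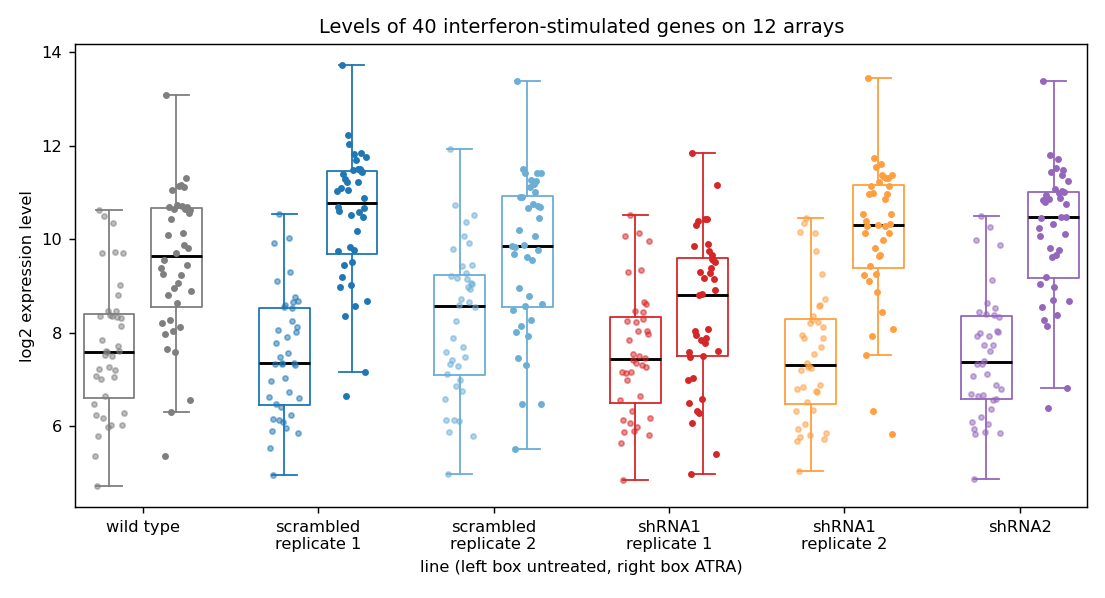
Log2 expression level of the 40 members on each of the 12 arrays, with untreated and ATRA arrays of a line side by side. Points are genes, the box spans the quartiles with the median as a black line, and whiskers reach 1.5 times the box at most. The ATRA median of shRNA1 replicate 1 is 8.82, and those of the other 5 ATRA arrays lie between 9.63 and 10.78.

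In the values by array that follow, control cells are given in the order wild type, scrambled replicate 1, scrambled replicate 2, and knockdown cells in the order shRNA1 replicate 1, shRNA1 replicate 2, shRNA2. Standard errors (SE) are those of the moderated fit, with 3 arrays in each group.

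The RNA sensors recognise viral RNA in the cytoplasm and signal through MAVS. All 5 passed in both kinds of cells, with medians of 2.38 and 2.11. DDX60L, a helicase relative of DDX60, had the largest mean change of the group. Its untreated levels were 8.36, 7.92 and 9.43 in control and 8.03, 8.35 and 7.93 in knockdown cells. After ATRA they were 11.13, 11.82 and 11.11, and 10.42, 11.61 and 11.53. No ATRA array overlapped an untreated one, and shRNA1 replicate 1 was the lowest of the treated arrays. The change was 2.78 (SE 0.38, adjusted p = 0.000286, limma) in control and 3.08 (SE 0.38, adjusted p = 0.000414, limma) in knockdown cells. In shRNA1 replicate 1 DDX60L changed by 2.39, a 5.25-fold difference between its arrays, and scrambled replicate 2 had the smaller change at 1.68.

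DHX58, or LGP2, a regulator of the other sensors without signalling domains of its own, had the smallest mean change. It stood at 7.51, 7.56 and 7.70 and at 7.51, 7.55 and 7.61 before ATRA. Afterwards it stood at 8.13, 8.58 and 8.27 and at 7.90, 8.44 and 8.39. It changed by 0.39 in shRNA1 replicate 1 and by 0.57 to 1.02 in the other lines. The fitted change was 0.74 (SE 0.14, adjusted p = 0.00237, limma) and 0.69 (SE 0.14, adjusted p = 0.00484, limma). RIGI, the sensor of RNA 5′ triphosphates, changed by 0.93 in shRNA1 replicate 1 and by 1.93 to 2.96 in the other lines. IFIH1, or MDA5, the sensor of long double-stranded RNA, changed by 1.06 against 1.53 to 2.99, and DDX60 by 1.80 against 2.02 to 3.81.

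The translation blockers bind foreign RNA or halt initiation. All 5 passed in both kinds of cells, with medians of 3.13 and 2.45, and shRNA1 replicate 1 had the smallest change for each of the 5. IFIT1, which binds RNA caps that lack 2′-O methylation, had the change farthest below the lowest of the other lines. It stood at 6.48, 6.63 and 6.59 and at 6.57, 6.34 and 6.68 before ATRA. After ATRA the control arrays reached 9.39, 11.04 and 9.85, and the knockdown arrays 6.99, 10.54 and 10.23. The untreated arrays were alike, and of the treated arrays shRNA1 replicate 1 alone stayed near them. Its change of 0.42 is a 1.34-fold difference, and the median of the other 5 lines was 11.7-fold. The fitted change was 3.53 in control (SE 0.73, adjusted p = 0.00327, limma) and 2.72 in knockdown cells (SE 0.73, adjusted p = 0.0174, limma).

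IFIT3, which binds and stabilises IFIT1, had the treated arrays in the same order. Untreated levels were 7.08, 6.97 and 7.60 in control and 7.17, 6.81 and 7.09 in knockdown cells. Treated levels were 9.26, 10.68 and 9.69, and 7.59, 10.12 and 10.07. The treated shRNA1 replicate 1 array, at 7.59, was level with the highest untreated array, scrambled replicate 2. Fitted changes were 2.66 (SE 0.57, adjusted p = 0.00388, limma) and 2.24 (SE 0.57, adjusted p = 0.0131, limma).

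IFIT2, the third partner in this complex, stood at 5.37, 5.55 and 6.13 and at 5.65, 5.69 and 6.10 untreated. Under ATRA it reached 8.20, 9.74 and 8.49 and 6.50, 9.23 and 9.05. All treated arrays lay above all untreated arrays, with shRNA1 replicate 1 lowest by 1.71. IFIT2 rose by 3.13 (SE 0.61, adjusted p = 0.00231, limma) and 2.45 (SE 0.61, adjusted p = 0.0121, limma).

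IFIT5, which binds RNA with a 5′ phosphate, had the largest mean change of the group. Its levels were 6.24, 5.90 and 7.13 and 6.13, 5.94 and 5.94 before, and 9.56, 10.60 and 9.83 and 7.48, 10.38 and 10.46 after ATRA. In shRNA1 replicate 1 it changed by 1.35, beside 2.70 to 4.70 in the other lines. The fitted change was 3.57 (SE 0.64, adjusted p = 0.00142, limma) and 3.44 (SE 0.64, adjusted p = 0.00259, limma).

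EIF2AK2, the kinase PKR that phosphorylates the initiation factor eIF2 alpha, had the smallest mean change. It went from 10.35, 10.02 and 10.06 to 11.15, 11.69 and 11.26 in control cells. In knockdown cells it went from 10.13, 10.14 and 10.26 to 10.42, 11.37 and 11.72. The treated shRNA1 replicate 1 array was 0.29 above its untreated one, and the other lines changed by 0.80 to 1.67. It passed at 1.22 (SE 0.26, adjusted p = 0.00394, limma) and 0.99 (SE 0.26, adjusted p = 0.0159, limma). The knockdown calls of IFIT1, IFIT2, IFIT3 and EIF2AK2 were lost without the ATRA array of shRNA1 replicate 2 or that of shRNA2, and that of IFIT1 also without the untreated array of shRNA1 replicate 2.

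The oligoadenylate synthetases make 2′-5′ linked adenylates that activate RNase L, and ISG20 is an RNA exonuclease. All 5 passed in control cells and 3 in knockdown cells, with medians of 3.01 and 2.13. OAS1 had the largest mean change. Untreated levels were 7.53, 7.48 and 8.26 and 7.17, 7.35 and 7.34. Treated levels were 11.04, 12.24 and 11.50 and 8.81, 11.74 and 11.81. All treated arrays were above all untreated ones, and shRNA1 replicate 1 was 2.23 below the next treated array. The changes were 3.84 (SE 0.63, adjusted p = 0.000847, limma) and 3.50 (SE 0.63, adjusted p = 0.0022, limma).

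OAS2 differed widely between the 3 knockdown lines, with changes of -0.05 in shRNA1 replicate 1, 3.29 in shRNA1 replicate 2 and 3.15 in shRNA2. It did not pass in knockdown cells (2.13, SE 0.87, adjusted p = 0.101, limma), and did pass there without the ATRA array of shRNA1 replicate 1, with 3.31. In control cells it passed at 3.01 (SE 0.87, adjusted p = 0.0187, limma), with changes of 1.38, 4.62 and 3.02. That call was lost without the ATRA array of scrambled replicate 1, the ATRA array of scrambled replicate 2 or the untreated wild type array. OAS3, the member that binds long double-stranded RNA, changed by 1.73 in shRNA1 replicate 1 and 2.24 to 4.70 elsewhere. OASL, which lacks synthetase activity and enhances RIGI signalling, changed by 0.44 against 1.30 to 2.49. Its knockdown call was lost without the ATRA array of shRNA1 replicate 2 or shRNA2.

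ISG20 had the smallest mean change of the group. It stood at 7.85, 8.05 and 7.90 and at 7.84, 7.89 and 8.0 untreated, and at 8.27, 8.36 and 8.14 and 7.94, 7.94 and 8.14 after ATRA. Treated and untreated arrays overlapped in knockdown cells and not in control cells. The change was 0.32 in control cells (SE 0.09, adjusted p = 0.0171, limma) and 0.10 in knockdown cells (SE 0.09, adjusted p = 0.506, limma). The difference between these responses had an adjusted p of 0.406 in limma. The control call was lost without the ATRA array of scrambled replicate 1 or the untreated wild type array.

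The large GTPases form rings or coats on viral nucleocapsids and pathogen vacuoles. Of 3 measured, 2 passed in control cells and 1 in knockdown cells. GBP2 had the largest mean change. It stood at 6.28, 6.62 and 8.54 and at 6.18, 5.86 and 6.79 untreated, and at 8.89, 8.68 and 8.61 and 7.62, 8.08 and 8.68 after ATRA. Untreated scrambled replicate 2 was already level with its own treated array, which left a change of 0.07 there beside 1.43 in shRNA1 replicate 1. It passed at 1.58 (SE 0.48, adjusted p = 0.025, limma) and 1.85 (SE 0.48, adjusted p = 0.0157, limma). The control call was lost without any 1 array of the wild type or of scrambled replicate 1. The knockdown call was lost without the ATRA array of shRNA2 or the untreated array of shRNA1 replicate 2.

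MX2, which blocks nuclear entry of lentiviral genomes, had the smallest mean change. It stood at 10.50, 10.53 and 10.74 and at 10.51, 10.45 and 10.50 untreated. Treated levels were 10.44, 11.23 and 10.90 and 10.38, 10.99 and 10.86. The groups overlapped, with the wild type and shRNA1 replicate 1 at or below their untreated level. MX2 did not pass at 0.27 (SE 0.19, adjusted p = 0.278, limma) or 0.26 (SE 0.19, adjusted p = 0.386, limma). MX1, which acts on influenza virus nucleoproteins, changed by 0.12 to 0.52 over the 6 lines. The control call of MX1 was lost under quantile normalization, at 0.22, and its knockdown change of 0.23 passed without the ATRA array of the wild type or scrambled replicate 1.

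Genes that restrict entry, replication or release of viruses all passed in both kinds of cells (7 of 7), with medians of 1.97 and 2.19. SAMD9L, a cytoplasmic inhibitor of translation related to SAMD9, had the largest mean change of all 40 members. It stood at 7.72, 7.36 and 8.66 and at 7.45, 6.89 and 6.87 untreated, and at 11.32, 11.84 and 11.42 and 9.67, 11.31 and 11.48 after ATRA. Treated arrays were far above untreated ones, and shRNA1 replicate 1 was the lowest treated array. Its changes were 3.61 (SE 0.44, adjusted p = 0.000156, limma) and 3.75 (SE 0.44, adjusted p = 0.000308, limma).

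BST2, or tetherin, which holds budding virions on the cell surface, had the smallest mean change of this group. It went from 9.01, 8.76 and 9.06 to 9.46, 10.48 and 9.76 in control cells. In knockdown cells it went from 8.62, 9.25 and 8.04 to 9.14, 10.13 and 10.11. Treated and untreated arrays overlapped in knockdown cells, where shRNA1 replicate 1 after ATRA lay below shRNA1 replicate 2 before it. The changes were 0.95 (SE 0.34, adjusted p = 0.0469, limma) and 1.16 (SE 0.34, adjusted p = 0.0272, limma). Of the 12 fits that each left out 1 array, the control call held only in those without the ATRA arrays of the wild type and shRNA1 replicate 1 and the untreated arrays of shRNA1 replicate 2 and shRNA2, with changes of 0.66 to 1.17. The knockdown call was lost without either array of shRNA2, the untreated array of shRNA1 replicate 1 or the ATRA array of shRNA1 replicate 2, with changes of 0.86 to 1.48.

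In shRNA1 replicate 1 the other members of the group changed by 0.36 for CMPK2, a mitochondrial nucleotide kinase, and 0.68 for RSAD2, or viperin, which makes a chain-terminating nucleotide. The other lines spanned 1.03 to 2.09 and 1.19 to 3.06. TRIM22, an antiviral ubiquitin ligase, changed by 2.29, within the 1.77 to 4.41 of the others. SAMD9 changed by 0.91 against 1.31 to 2.78, and PLSCR1, a scramblase that limits viral entry, by 1.54 against 1.66 to 2.75. The control call of RSAD2 was lost without the ATRA array of scrambled replicate 1 or the untreated wild type array, and its knockdown call without the ATRA array of shRNA1 replicate 2 or shRNA2.

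The ADP-ribosylation and ubiquitin ligase genes all passed in both kinds of cells (5 of 5), with medians of 1.59 and 1.87. PARP14, a mono-ADP-ribosyltransferase, had the largest mean change. It stood at 7.22, 6.25 and 9.29 and at 7.30, 6.73 and 6.56 untreated, and at 10.13, 11.22 and 11.17 and 9.75, 10.86 and 10.88 after ATRA. Its untreated level was highest in scrambled replicate 2, and that line had the smallest change at 1.89, below the 2.44 of shRNA1 replicate 1. The changes were 3.26 (SE 0.62, adjusted p = 0.00203, limma) and 3.63 (SE 0.62, adjusted p = 0.00161, limma).

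PARP12, which is recruited to stress granules, had the smallest mean change. It went from 9.74, 9.31 and 10.37 to 10.71, 11.50 and 10.76 in control cells. In knockdown cells it went from 9.33, 9.75 and 9.12 to 9.90, 11.32 and 11.00. The change was 0.39 in scrambled replicate 2 and 0.56 in shRNA1 replicate 1, the lowest pair of the 6 lines. PARP12 passed at 1.18 (SE 0.37, adjusted p = 0.026, limma) and 1.34 (SE 0.37, adjusted p = 0.0193, limma). The control call was lost without either array of scrambled replicate 1 or the untreated wild type array. The knockdown call was lost without either array of shRNA2, the untreated array of shRNA1 replicate 1 or the ATRA array of shRNA1 replicate 2.

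HERC6, a ubiquitin ligase of the HERC family, was nearly flat in shRNA1 replicate 1, at 0.16, and changed by 0.93 to 2.48 in the others. PARP9 and DTX3L encode partners of a single complex and lie head to head in the genome. In shRNA1 replicate 1 PARP9 changed by 1.42 and DTX3L by 0.84, and the other lines ran from 2.08 to 3.44 and from 0.93 to 2.73. The call of HERC6 was lost in 1 of the 12 fits without 1 array in control cells, that without the ATRA array of scrambled replicate 1, and in 6 in knockdown cells. Those 6 were the fits without any 1 untreated knockdown array, the untreated wild type array or the ATRA array of shRNA1 replicate 2 or shRNA2, and the change ran from 1.0 to 2.07.

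Among 10 other interferon-induced genes, 8 passed in control cells and 7 in knockdown cells, with medians of 1.76 and 1.96. IFI44L had the largest mean change. It stood at 5.79, 6.16 and 5.87 and at 5.88, 5.78 and 5.83 untreated. After ATRA it was at 7.98, 11.10 and 8.01, and at 6.07, 10.28 and 10.84. The treated arrays fell at 3 heights, with shRNA1 replicate 1 at the untreated level, the wild type and scrambled replicate 2 near 8.0, and the rest above 10.0. In shRNA1 replicate 1 the difference was 1.13-fold, against a median of 22.7-fold in the other lines. The fitted changes were 3.09 (SE 1.08, adjusted p = 0.0422, limma) and 3.23 (SE 1.08, adjusted p = 0.0466, limma). These calls were near the threshold, and were lost in 7 of the 12 fits without 1 array in control cells and in 9 in knockdown cells, with changes of 2.05 to 3.61 and 2.34 to 4.73. The control call held without the ATRA array of the wild type, scrambled replicate 2 or any knockdown line. The knockdown call held without the ATRA array of the wild type, scrambled replicate 1 or shRNA1 replicate 1.

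EPSTI1, named for its induction in epithelium by stroma, had the smallest mean change. It stood at 6.03, 5.87 and 5.79 and at 5.82, 5.73 and 5.85 untreated, and at 6.57, 7.15 and 6.47 and 5.40, 5.84 and 6.83 after ATRA. The control groups did not overlap, whereas in knockdown cells shRNA1 replicate 1 ended below its untreated level. The change was 0.84 in control (SE 0.29, adjusted p = 0.0393, limma) and 0.22 in knockdown cells (SE 0.29, adjusted p = 0.653, limma). The knockdown value was -0.18 without the ATRA array of shRNA2. The control call was lost without any 1 untreated control array, the ATRA array of the wild type or scrambled replicate 1, or the untreated array of either shRNA1 replicate, with changes of 0.62 to 0.97.

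IFI44, the neighbour and relative of IFI44L, changed by 4.02, 2.47 and 3.66 in scrambled replicate 1, shRNA1 replicate 2 and shRNA2. The wild type, scrambled replicate 2 and shRNA1 replicate 1 changed by 0.64, 0.53 and 0.12. Their treated levels of 5.36, 5.52 and 4.97 lay near each other, without the middle height of IFI44L. IFI44 did not pass in either arm (adjusted p = 0.165 and 0.137, limma). It did pass in knockdown cells without the ATRA array of scrambled replicate 1 or that of shRNA1 replicate 1. IFI27, a small mitochondrial protein, did not pass either, with changes of 1.86 in scrambled replicate 1, 1.91 in shRNA1 replicate 2 and 0.94 in shRNA2. The wild type, scrambled replicate 2 and shRNA1 replicate 1 stood at 0.41, 0.11 and -0.12. It passed in knockdown cells without the ATRA array of shRNA1 replicate 1. XAF1, a pro-apoptotic partner of XIAP, changed by 1.09 in shRNA1 replicate 1 and by 2.02 to 2.99 in the others. SP110, a nuclear body protein, changed by 0.88 against 1.02 to 2.67.

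In 2 of these genes the change in shRNA1 replicate 1 was near the median of the other lines. LGALS3BP, a secreted glycoprotein, changed by 1.20 there, with a median of 1.36 over the other lines, and its treated level of 11.15 was above that of the wild type at 10.62. IFI16, a nuclear DNA sensor, changed by 1.0 against a median of 1.11. IFI35 changed by 1.61 there against a median of 2.87, and IFI6, which acts against flaviviruses, by 1.77 against 3.27. The treated IFI6 level of 11.85 was below the 13.07 to 13.72 of the other treated arrays. The smallest change of IFI35 and IFI6 was in scrambled replicate 2, at 1.0 and 1.45, where the untreated level was the highest of the 6. The calls of LGALS3BP were lost without the ATRA array of scrambled replicate 1 in control cells and the untreated array of shRNA1 replicate 2 in knockdown cells. In control cells the call of IFI16 was lost without either array of scrambled replicate 1. In knockdown cells it was lost without either array of shRNA2, the untreated array of shRNA1 replicate 1 or the ATRA array of shRNA1 replicate 2.

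Across the list, shRNA1 replicate 1 changed by less than 0.5 for 15 members. For 9 of these the other lines had a median change of at least 1: IFIT1, IFIT3, EIF2AK2, IFI44, IFI44L, OAS2, OASL, CMPK2 and HERC6. The median of the other lines was at least 1 for 33 members in all and at least 2 for 26. The gap to the other lines ranged from near none, as in IFI16 and LGALS3BP, to a loss of nearly the whole rise, as in IFI44L and OAS2.

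**Figure D3:**
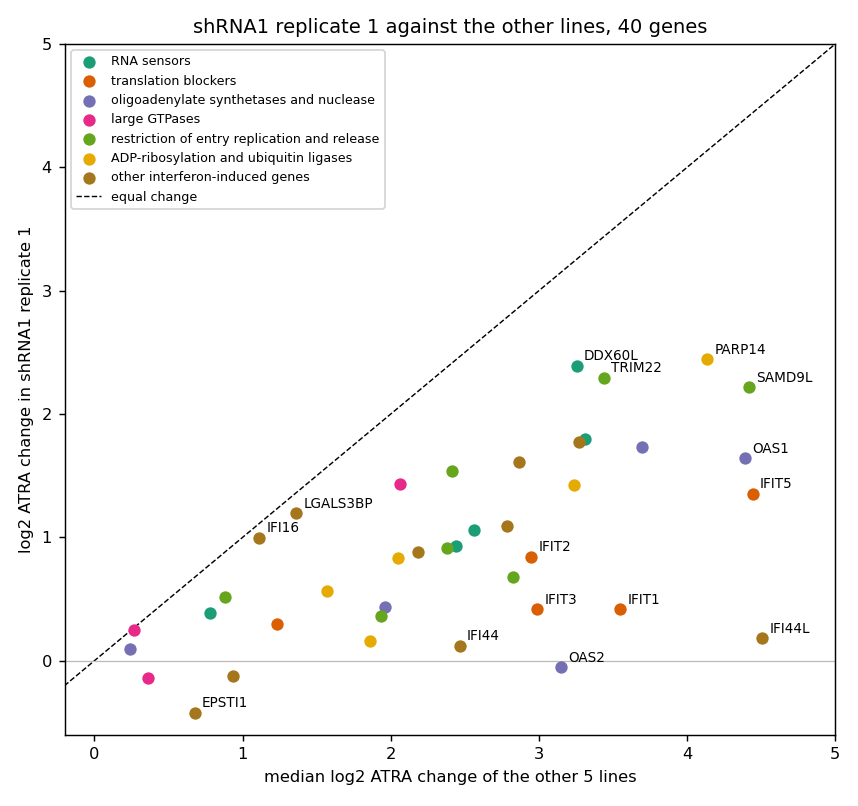
Log2 ATRA change of each of the 40 members in shRNA1 replicate 1 (vertical axis) against the median of the other 5 lines (horizontal axis), coloured by role, with a dashed line of equal change. No point lies above the line. The widest gap is that of IFI44L, at 0.18 against 4.51. The narrowest is that of MX1, at 0.25 against 0.27, a gene that changed little in any line (0.12 to 0.52).

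The genes around the programme showed where the same pattern was seen. Of 21 interferon ligands 16 were measured and 0 passed in either arm with limma. In control and knockdown cells 1 and 3 had an unadjusted p under 0.05, against 47.0% and 34.6% of all genes. Their medians were 0.08 in control and 0.07 in knockdown cells. IFNB1, the first interferon made by infected cells, ran from 4.69 to 5.03 over the 12 arrays. IFNG, made by lymphocytes, ran from 4.41 to 4.78. The median untreated level of the ligands was 5.57 to 5.66 over the lines, and that of all genes 8.07 to 8.12. At such low levels a change may go unseen. Transcripts of ligands measured at 96 hours say nothing of earlier times.

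Of the receptors and signalling genes 20 were measured. In control cells 12 rose and in knockdown cells 11, with medians of 0.53 and 0.60. The smallest change fell in shRNA1 replicate 1 for 5 of the 20 (10.1% of all genes) and in scrambled replicate 2 for 10 (20.1%). The lowest treated level fell in shRNA1 replicate 1 for 10 of the 20, against 13.8% of all genes. IRF9, the DNA-binding part of the interferon complex, stood at 8.45 to 9.06 in untreated arrays. After ATRA it was at 10.96, 11.18 and 10.75 and at 10.20, 11.16 and 11.10. The treated arrays were all above the untreated ones, with shRNA1 replicate 1 lowest. IRF9 rose by 2.17 (SE 0.22, adjusted p = 8.2e-05, limma) and 2.32 (SE 0.22, adjusted p = 0.000133, limma). IRF7, the amplifier of interferon induction, was likewise lowest in treated shRNA1 replicate 1, at 8.85 beside 9.07 to 9.41. IRF1, a target of interferon gamma and of ATRA, was at 9.58 there and 9.69 to 9.99 in the other treated arrays.

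The ISG15 conjugation system attaches the ubiquitin-like ISG15 to proteins. Of its 6 genes 4 rose in control and 3 in knockdown cells. The median change was 0.07 in shRNA1 replicate 1 and 0.58 to 1.52 in the other lines. For 5 of the 6 genes the change was the smallest in shRNA1 replicate 1, against 10.1% of all genes. USP18, which removes ISG15 and restrains the interferon receptor, went from 8.12, 8.16 and 8.03 to 9.46, 10.05 and 8.91 in control cells. In knockdown cells it went from 8.48, 8.23 and 8.23 to 8.25, 10.05 and 9.88. Only in shRNA1 replicate 1 did the treated array lie below the untreated one. ISG15 itself was at 8.30 in treated shRNA1 replicate 1 and at 8.49 to 8.86 in the other treated arrays. Its change was 0.11 in shRNA1 replicate 1 and nearly the same in shRNA2, at 0.12, and reached 0.89 in scrambled replicate 1. ISG15 did not pass in knockdown cells (0.18, SE 0.11, adjusted p = 0.281, limma). UBA7, the activating enzyme of ISG15, kept its response in shRNA1 replicate 1, from 8.55 to 10.38.

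Among 24 measured other interferon-stimulated genes, 11 rose in control and 10 in knockdown cells. Here scrambled replicate 2 had the smallest change for 15 (20.1% of all genes) and shRNA1 replicate 1 for 6 (10.1%). The lowest treated level fell in shRNA1 replicate 1 for 16 of the 24, against 13.8% of all genes. CXCL10, a chemokine induced by interferon gamma, stood at 8.56, 9.11 and 6.53 and at 8.75, 8.12 and 4.90 untreated, and at 12.14, 11.76 and 11.19 and 11.00, 12.28 and 11.77 after ATRA. Its treated level in shRNA1 replicate 1 was the lowest but close to scrambled replicate 2.

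Genes outside the interferon system give the size of the ATRA response in each line. Of 17 measured myeloid maturation genes, 14 rose in control and 17 in knockdown cells. Their median change was 2.12 in shRNA1 replicate 1, beside 2.67, 2.43, 1.11, 2.36 and 3.10 in the wild type, scrambled replicate 1, scrambled replicate 2, shRNA1 replicate 2 and shRNA2. The smallest change fell in shRNA1 replicate 1 for 3 of the 17 (10.1% of all genes) and in scrambled replicate 2 for 12 (20.1%). The lowest treated level fell in shRNA1 replicate 1 for 6 of the 17, more than in any other line, against 13.8% of all genes. Of the 3 with the smallest p, AQP9, a water and glycerol channel, was at 9.09 in treated shRNA1 replicate 1 and at 10.38 to 11.50 in the other treated arrays. JAML, an adhesion molecule of leukocytes, was at 10.33 beside 11.07 to 11.69. ADGRE3, an adhesion receptor of myeloid cells, was at 11.70 beside 11.61 to 12.16. Of 20 DNA replication genes, 20 fell in control and 15 in knockdown cells. Their median change was -1.35 in the wild type, -0.88 in scrambled replicate 1 and -1.06 in scrambled replicate 2. It was -0.69 in shRNA1 replicate 1, -0.60 in shRNA1 replicate 2 and -0.50 in shRNA2. The part of clone, culture and knockdown in the values of shRNA1 replicate 1 was not tested, and with 1 pair of arrays they cannot be told apart.

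**Figure D4:**
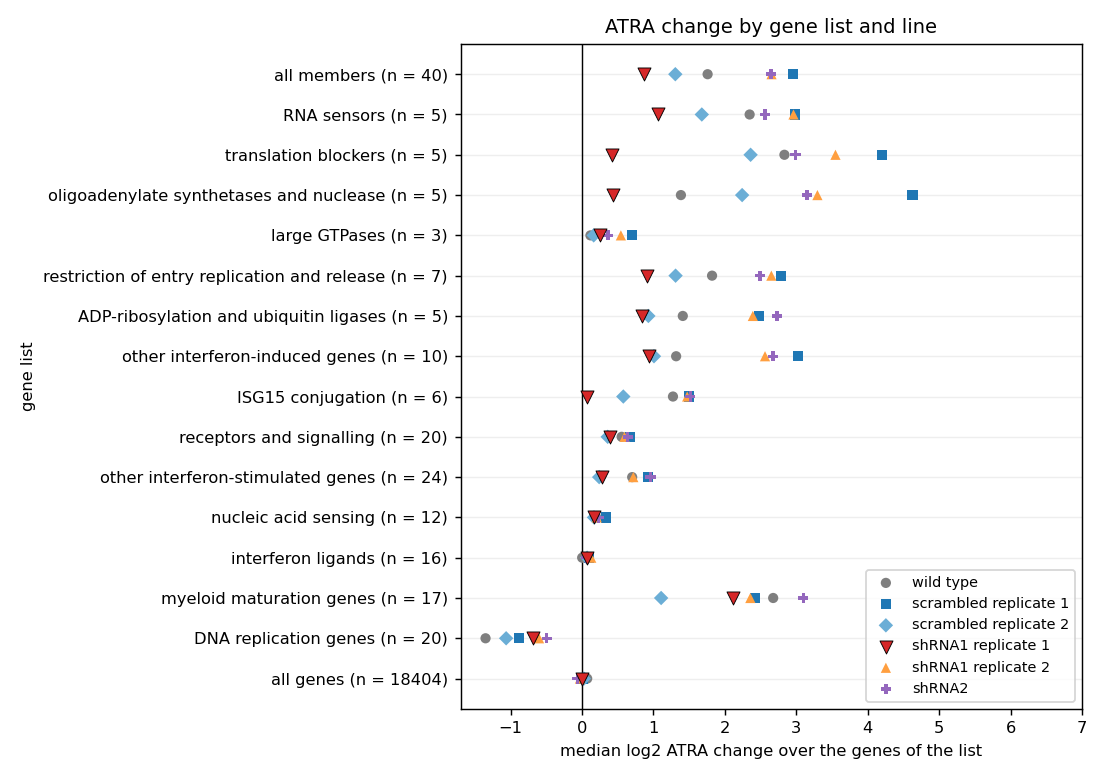
Median log2 ATRA change of each gene list (rows, with the number of measured genes) in each of 6 lines (symbols). The red triangle of shRNA1 replicate 1 is at 0.86 for all members and at 0.07 for ISG15 conjugation, left of the other lines, and at 2.12 for myeloid maturation genes, where scrambled replicate 2 is leftmost at 1.11.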

How the data were processed

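Total RNA of 12 samples was converted to biotin-labelled cDNA and hybridised to Affymetrix ST arrays. The deposited log2 values are used as the authors gave them. The submitters' processing notes name RMA and limma, with no version or setting, and RMA is a method that corrects background, normalizes arrays and summarises probes. No array normalization was added. The number of arrays limits the precision. Of 32321 probe sets, the 19158 annotated to 1 gene were used, and 1388 annotated to several genes and 11775 not listed were not. Of these, 19128 matched a current gene by Entrez identifier, and 637 genes with several probe sets were read from that of greatest mean level. No low values were removed. Probes of related genes such as the IFIT, OAS and DDX60 families may bind more than 1 member.

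Groups follow the labels. limma 3.58.1 in R 4.3.3 was fitted to 4 group means with 8 residual degrees of freedom (lmFit and eBayes), with two-sided p-values, adjusted by Benjamini-Hochberg over 18404 genes within each contrast, and a threshold of 0.05. The fit was tested on simulated data. An exact test of 3 against 3 arrays cannot go below p = 0.1. Differences per line match arrays by construct and replicate number. The members, lists and role groups were chosen with earlier results of these data known, and no list was tested as a set. Values in every array are given for the members with the largest and the smallest mean ATRA change over the 6 lines in each role group and the 5 members whose change in shRNA1 replicate 1 lay farthest below all other lines. Outside the members, IRF9, IRF7, IRF1, ISG15, USP18, IFNB1, IFNG, CXCL10 and the 3 genes of a list with the smallest p could be named, and TGM2 was chosen after its values were seen. Alternatives were other normalizations, a filter on the lowest 33.3% of genes, the mean of a gene's probe sets, array weights, a trended and robust variance prior, lines or single arrays left out, and the line as a block.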

Additional observations from a re-analysis of the deposited data

How the results depend on the processing

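With each array left out in turn, the number of members that rose with ATRA ran from 26 to 37 in control cells and from 21 to 36 in knockdown cells, the lowest without the ATRA arrays of scrambled replicate 1 and shRNA2. Of the calls made with all arrays, 26 of 37 in control and 20 of 33 in knockdown cells held in each of the 12 fits. The change of EPSTI1 in knockdown cells was the one value that changed sign, to -0.18 without the ATRA array of shRNA2, in a range of -0.18 to 0.53 over the 12 fits. The other normalizations, the filter on low levels, the mean of probe sets, array weights, the variance prior and the fits without wild type or without shRNA1 replicate 1 gave 28 to 40 members in control cells and 31 to 35 in knockdown cells. Quantile normalization and the trended prior each ended 5 calls, those of IFI44L in both arms, EPSTI1 in control and HERC6 in knockdown cells, with MX1 in control cells under the former and BST2 in control cells under the latter. The filter kept 35 of the 40 members, and shRNA1 replicate 1 then had the smallest change for 24. With the line as a replicate block, 37 members rose in control and 33 in knockdown cells, and 0 responses differed, so the block changed no call of a member. Deviations of the untreated and treated arrays of a line from their group means correlated at -0.17 to 0.23 across genes, and 4 of 6 untreated arrays correlated best with the treated array of their own number, so the numbers alone do not show a pairing. The number of members that differed between knockdown and control cells was 0 under each alternative run. Precision rests on 3 arrays a group.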
